A study of Mus musculus with 12 samples.

Results

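The genes described here are 10 members of the BCL2 family, 8 BH3-only genes and 2 anti-apoptotic genes, taken by name from a table of 32721 genes. The BH3-only genes are Bmf, Bcl2l11 (Bim), Bbc3 (Puma), Pmaip1 (Noxa), Bad, Bid, Bik and Hrk, and the anti-apoptotic genes are Mcl1 and Bcl2l1 (Bcl-xL). They were followed in mouse embryonic fibroblasts homozygous for a floxed Vps15 allele (Vps15f/f), in 4 groups of 3 poly-A RNA libraries. WT cells had received adeno-GFP and Vps15KO cells adeno-CRE, an adenovirus with the recombinase that cuts out floxed DNA, and both were collected 5 days after transduction. In each genotype, cells stayed in basal medium (high glucose DMEM with 10% serum) or spent 2 h in EBSS, a salt solution. EBSS withdrew amino acids, serum and much of the glucose at once, and these groups do not separate those changes. Exposure to Cre and loss of Vps15 cannot be told apart either, since every Vps15KO library had both. The cells are labelled as a single line, the library names read pLEX_GFP and pLEX_CRE without saying what pLEX is, and nothing says that replicates were separate cultures, so p-values measure the spread between these libraries, which may be technical.

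Proteins of the BCL2 family set the threshold of the mitochondrial pathway of apoptosis. Anti-apoptotic members such as MCL1 and BCL-xL hold the pore formers BAX and BAK in check, and BH3-only proteins, named for the single BCL2 homology domain they share, bind and neutralise the anti-apoptotic members, while some of them also activate BAX and BAK directly. BH3-only genes are often controlled at the level of RNA, for example by FOXO factors when growth factor signalling falls, by p53 after DNA damage and by CHOP and ATF4 under stress of the endoplasmic reticulum, although the proteins are also regulated by phosphorylation, cleavage and turnover that RNA does not show. Pik3r4 encodes Vps15, a regulatory protein of the class 3 PI3K complex. That complex also holds Beclin 1, which has a BH3 domain of its own and binds BCL2.

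Promoter windows were read for all members that had one. Stretches of Bcl2l11, Bbc3 and Bmf are printed to show what lies before their start sites. The RefSeq windows (GRCm38.p6) of 250 bases before to 50 after each annotated start held 16 windows of 8 members, with none for Pmaip1 or Bik. They were searched on both strands for GTAAACA (a forkhead motif), TGATGNAA (an ATF4 and CHOP motif), TGANTCA (AP-1) and CACGTG (E-box). GTAAACA lay in 2 member windows, 1 of Bcl2l11 and 1 of Bbc3, and in 3.65% of all 32851 windows. TGATGNAA was in 1 window, of Hrk (3.97% of all windows), CACGTG in 1 window, another of Bbc3 (7.15%), and TGANTCA in 0 (7.81%). The 250 bases before the start are printed 5′ to 3′ on the gene's strand for these Bcl2l11 and Bbc3 windows, with the forkhead match in capitals (in Bbc3 it lies on the other strand), and for 1 of the 3 Bmf windows, in none of which any of the 4 motifs was found. The match starts 227 bases before the start site in Bcl2l11 and 167 bases before it in Bbc3. The stretches are chr2:128125788-128126037 (plus strand) for Bcl2l11, chr7:16310011-16310260 (plus strand) for Bbc3 and chr2:118547600-118547849 (minus strand) for Bmf. A match describes the letters only and does not show binding.
Bcl2l11: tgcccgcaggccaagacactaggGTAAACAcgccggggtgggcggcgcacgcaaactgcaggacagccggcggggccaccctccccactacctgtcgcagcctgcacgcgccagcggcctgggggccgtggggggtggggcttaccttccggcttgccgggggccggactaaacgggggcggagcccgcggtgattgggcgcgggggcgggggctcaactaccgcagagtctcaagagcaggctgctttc
Bbc3: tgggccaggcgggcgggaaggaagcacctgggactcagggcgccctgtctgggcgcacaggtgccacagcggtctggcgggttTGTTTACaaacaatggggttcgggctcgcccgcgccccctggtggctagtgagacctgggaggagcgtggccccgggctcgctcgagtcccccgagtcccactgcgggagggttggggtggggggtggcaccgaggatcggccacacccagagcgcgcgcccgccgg
Bmf: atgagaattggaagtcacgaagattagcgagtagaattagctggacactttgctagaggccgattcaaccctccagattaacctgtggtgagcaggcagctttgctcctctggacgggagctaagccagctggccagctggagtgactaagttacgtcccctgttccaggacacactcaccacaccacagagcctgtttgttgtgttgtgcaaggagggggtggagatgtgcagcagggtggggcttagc

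The libraries held 21278921 to 21698584 reads in genes. Normalized counts, the reads divided by a size factor of 0.945 to 1.02, are given below, and log2 changes are differences of the deposited log2 values. Pik3r4 had 875 ± 10.3 normalized counts in WT and 658 ± 36.7 in Vps15KO in basal medium (mean ± SD, n = 3), and 895 ± 62.7 and 632 ± 35.9 in EBSS. It was lower in Vps15KO in both media (log2 -0.40 ± 0.07 SE, adjusted p = 8.41e-05, and log2 -0.48 ± 0.07 SE, adjusted p = 1.03e-05), so reads over the whole gene were reduced and not absent. Of the 6 WT libraries, 2 stood apart. The chi-square per gene of WT basal replicate 2 against the other replicates was 21.1 and 20.2, while those differed by 3.15, and WT EBSS replicate 1 gave 8.17 and 11.8 against 3.82. Without both, no member's call changed in any comparison. Fibroblast markers were present in all libraries, with 543334 to 569954 summed normalized counts in WT basal, 483088 to 520443 in WT EBSS, 276953 to 280307 in Vps15KO basal and 276886 to 290160 in Vps15KO EBSS. Of 9 tested, 8 were lower in Vps15KO in basal medium and 7 in EBSS. Leukocyte markers summed to 875 to 908 and 804 to 901 in WT and to 2923 to 3807 and 2644 to 3314 in Vps15KO, almost all of it Cd68, while Ptprc, the defining pan-leukocyte marker, had at most 2 reads in a library and Cd3e 0. Their part in the member results was not tested. In bulk RNA, a change per cell and a change in the mix of cells cannot be told apart.

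The response to EBSS differed between the genotypes for 4 of the 5 tested BH3-only genes, Bmf, Bcl2l11, Bid and Bbc3, and not detectably for Bad. Bmf rose 2.30-fold and Bcl2l11 2.05-fold after EBSS in WT, while in Vps15KO they were lower in both media and EBSS moved them by log2 0.17 and -0.02. Bbc3 rose in Vps15KO. Among the anti-apoptotic genes Mcl1 rose after EBSS in Vps15KO, and Bcl2l1 fell in both genotypes. Of the 7 members with enough reads to be tested, 5 were called after EBSS in WT (3 higher, 2 lower), where 62.7% of all 14279 genes tested were called (31.4% higher, 31.3% lower). After EBSS in Vps15KO 5 were called (3 higher, 2 lower), against 52.0% of all genes (25.9% and 26.1%). Between genotypes, 5 were called in basal medium (2 higher and 3 lower in Vps15KO), against 58.5% of all genes (29.3% and 29.2%), and 7 in EBSS (4 higher, 3 lower), against 57.2% (29.4% and 27.8%). Most genes were called in each of these 4 comparisons. The genotype difference in the response to EBSS (effect in Vps15KO minus effect in WT) was called for 5 of 7 members (2 above 0, 3 below), against 17.8% of all genes (9.55% and 8.24%). Members were chosen with earlier results of these data known, so these counts describe them and do not test the family. The groups did not overlap for 6, 5, 5 and 7 of the 7 members in the 4 comparisons in this order, and for 65.2%, 63.0%, 61.7% and 66.3% of all genes. A log2 change of at least 1 was called for 2 members after EBSS in WT, 0 in Vps15KO, 1 between genotypes in basal medium, 3 in EBSS and 3 for the difference, against 5.58%, 3.49%, 4.87%, 5.24% and 0.826% of all genes. With limma and no such threshold, 5 members passed in Vps15KO, as above. These comparisons share their groups, so their values are given side by side and only the difference term tests one EBSS effect against the other.

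**Figure D1:**
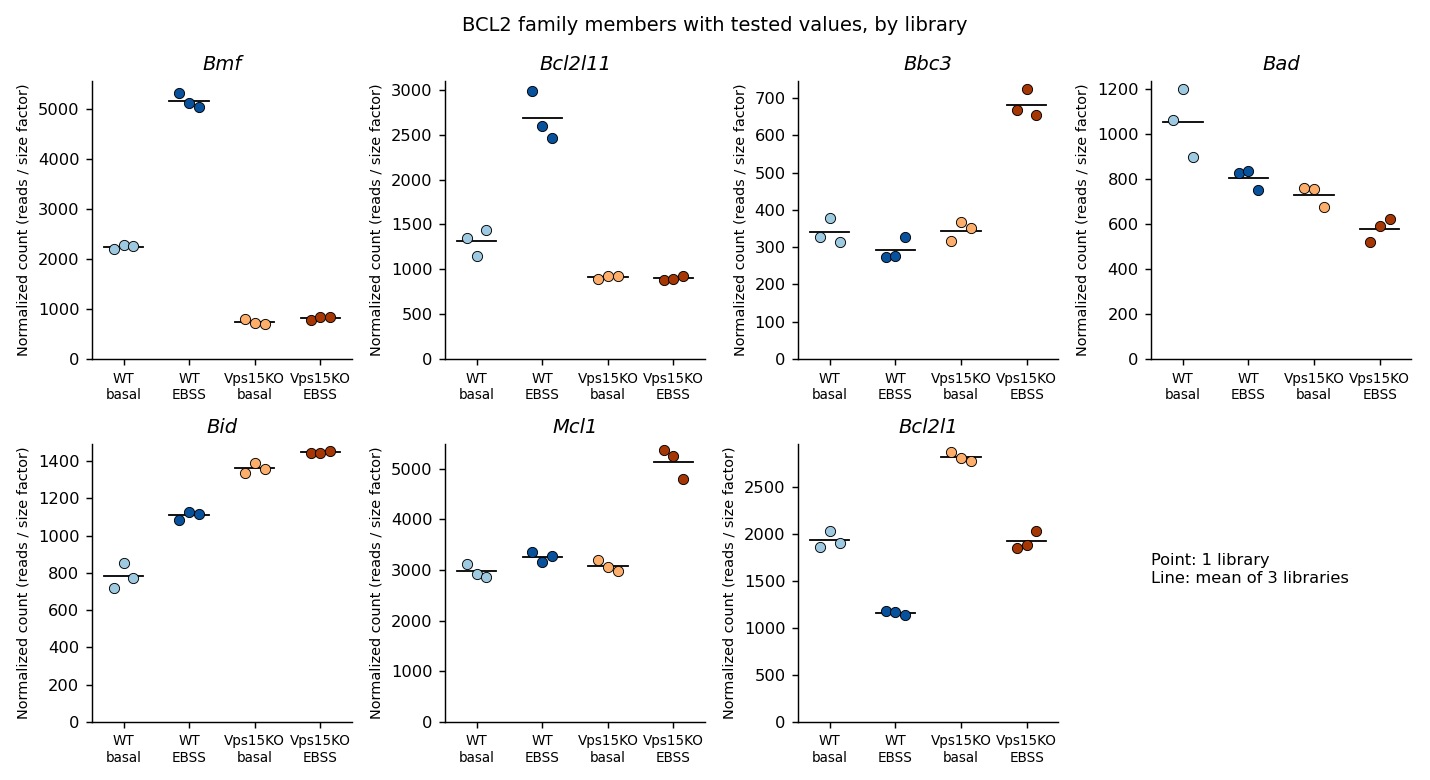
Normalized counts (vertical axis, from 0) of the 7 tested members in each library, by group (WT basal, WT EBSS, Vps15KO basal, Vps15KO EBSS). Points are libraries and horizontal lines the mean of 3. Bmf and Bcl2l11 are highest in the WT EBSS libraries, Bbc3 and Mcl1 in the Vps15KO EBSS libraries.

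Bmf encodes a BH3-only protein that is held at the actin cytoskeleton through a dynein light chain and is known from cell death after loss of attachment. Bmf is on chromosome 2 from 118528757 to 118549686 (build mm10). WT basal libraries had 2199.6, 2275 and 2265 normalized counts, and WT EBSS libraries 5332, 5117 and 5041. Vps15KO libraries had 807, 712 and 692 in basal medium and 789.6, 848 and 848 in EBSS. All starved WT libraries were above all fed WT libraries, both WT groups were above both Vps15KO groups, and the Vps15KO groups overlapped with each other. In WT the mean rose 2.30-fold, from 2247 ± 40.9 to 5164 ± 151 (SD, n = 3), a log2 change of 1.19 ± 0.06 (SE, adjusted p = 2.95e-11). In Vps15KO the ratio was 1.12 and the log2 change 0.17 ± 0.06 (SE, adjusted p = 0.0356). That small rise was lost in 10 of 26 alternatives. It was not called without Vps15KO basal replicate 2 (adjusted p = 0.124) or 3 (0.162) or without Vps15KO EBSS replicate 2 (0.112) or 3 (0.102).

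Bmf was the member with the largest genotype difference. Vps15KO had 32.8% of the WT level in basal medium and 16.0% in EBSS, log2 differences of -1.58 ± 0.06 (SE, adjusted p = 1.26e-12) and -2.60 ± 0.06 (SE, adjusted p = 3.07e-15). In EBSS, Bmf had rank 1 by p-value among the 14279 genes tested and rank 2 from the most negative difference. In basal medium it had rank 19 by p-value and 43 from the most negative difference. The EBSS effect in Vps15KO minus that in WT was -1.02 ± 0.09 (SE, adjusted p = 4.85e-07) on the log2 scale, and without the WT libraries that stood apart this difference was -1.01.

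Bcl2l11 encodes Bim, an activator of BAX and BAK that binds all anti-apoptotic members and is a known FOXO3 target. It lies on chromosome 2 from 128126038 to 128162547. Its counts were 1353, 1147 and 1433 in WT basal and 2992, 2599.9 and 2459.9 in WT EBSS libraries. In Vps15KO they were 891, 926 and 927 in basal medium and 876, 896 and 927 in EBSS. As for Bmf, starved WT libraries were highest without overlap, and the Vps15KO groups overlapped below both. The mean rose 2.05-fold in WT, by log2 1.02 ± 0.08 (SE, adjusted p = 4.98e-09). That change was 0.82 with each library's dependence on length and GC content taken out and 0.85 without the WT libraries that stood apart, both called. In Vps15KO the log2 change was -0.02 ± 0.08 (SE, adjusted p = 0.826), with a 95% confidence interval of -0.19 to 0.15, and with each library's dependence on length and GC content taken out it was -0.19 (adjusted p = 0.018). Vps15KO had 69.7% of WT in basal medium (log2 -0.50 ± 0.08 SE, adjusted p = 3.32e-05) and 33.5% in EBSS (log2 -1.54 ± 0.08 SE, adjusted p = 2.17e-11). The EBSS effects differed by -1.04 ± 0.11 (SE, adjusted p = 7.3e-06), and by -0.87 without the WT libraries that stood apart.

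Bbc3 encodes Puma, which binds all anti-apoptotic members and is known as a p53 target that FOXO3 and CHOP can also induce. It lies on chromosome 7 from 16308398 to 16318334. Counts were 328, 379 and 315 in WT basal, 275, 277 and 327 in WT EBSS and 315, 367 and 350.1 in Vps15KO basal libraries. Vps15KO EBSS libraries had 668, 723 and 654. The starved Vps15KO libraries were above all others, and the other 3 groups all overlapped each other. EBSS raised Bbc3 1.98-fold in Vps15KO, by log2 0.93 ± 0.09 (SE, adjusted p = 9.26e-08). In WT the change was -0.20 ± 0.09 (SE, adjusted p = 0.0584) and passed as a fall without WT basal replicate 3 (-0.25, adjusted p = 0.0349) or WT EBSS replicate 3 (-0.28, adjusted p = 0.0188). It was -0.02 (adjusted p = 0.867) after correction for length and GC content and -0.09 (adjusted p = 0.431) without the WT libraries that stood apart. Between genotypes the difference was 0.02 ± 0.09 (SE, adjusted p = 0.895) in basal medium, with a 95% interval of -0.17 to 0.20. In EBSS Vps15KO had 2.33-fold the WT level (log2 1.15 ± 0.09 SE, adjusted p = 3.98e-09). The EBSS effects differed by 1.13 ± 0.13 (SE, adjusted p = 8.35e-06), in the opposite direction to those of Bmf and Bcl2l11.

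Bid encodes a BH3-only protein that caspase 8 cleaves into an active form, linking death receptors to mitochondria. It lies on chromosome 6 from 120893119 to 120917062. Counts were 717, 854 and 774 in WT basal and 1084, 1129.5 and 1118 in WT EBSS libraries, and 1336, 1389.8 and 1360.0 in Vps15KO basal and 1443, 1445 and 1457 in Vps15KO EBSS libraries. The 4 groups did not overlap, in the order just given. EBSS raised Bid 1.42-fold in WT, by log2 0.49 ± 0.06 (SE, adjusted p = 2.52e-06). In Vps15KO the change was 0.09 ± 0.06 (SE, adjusted p = 0.268), with a 95% interval of -0.05 to 0.22. Vps15KO was 1.74-fold WT in basal medium (log2 0.78 ± 0.06 SE, adjusted p = 8.58e-09) and 1.30-fold in EBSS (log2 0.37 ± 0.06 SE, adjusted p = 6.41e-05). The EBSS effects differed by -0.41 ± 0.09 (SE, adjusted p = 0.00435). In the annotation 628 exon bases of Bid are shared with Bcl2l13 on the other strand, which had 983, 1195, 1322 and 1324 mean normalized counts in the same order of groups. Since the use of strand in counting is not stated, reads in the shared bases may belong to either gene.

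Bad encodes a BH3-only protein that binds BCL-xL and is inactivated by survival kinases through phosphorylation. It lies on chromosome 19 from 6941861 to 6951905. Counts were 1064, 1201 and 896 in WT basal, 828, 837 and 749 in WT EBSS, 759, 756 and 678 in Vps15KO basal and 521, 589.8 and 620.3 in Vps15KO EBSS libraries. Fed WT libraries were highest and starved Vps15KO libraries lowest, and the other 2 groups overlapped. EBSS lowered Bad in both genotypes, to 0.764 of basal in WT (log2 -0.37 ± 0.09 SE, adjusted p = 0.00212) and to 0.790 in Vps15KO (log2 -0.33 ± 0.09 SE, adjusted p = 0.00648). With each library's dependence on length and GC content taken out, the WT fall was -0.17 and not called (adjusted p = 0.0551). Vps15KO had 69.3% of WT in basal medium and 71.7% in EBSS, by -0.50 ± 0.09 (SE, adjusted p = 0.000146) and -0.46 ± 0.09 (SE, adjusted p = 0.000328). The EBSS effects differed by 0.04 ± 0.13 (SE, adjusted p = 0.875), with a 95% interval of -0.23 to 0.32. Bad shares 524 exon bases with Gpr137 on the other strand, which fell after EBSS, by log2 changes of -1.09 for WT and -0.70 in Vps15KO on the log2 scale. Between genotypes Gpr137 differed by -0.29 in basal medium (adjusted p = 0.00373) and by 0.11 in EBSS (adjusted p = 0.256). The part of Gpr137 reads in the Bad counts was not tested.

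The other 3 BH3-only genes were at or near 0. Pmaip1 (chromosome 18 from 66458604 to 66465558), which encodes Noxa, a partner of MCL1, had 0 to 2 reads a library, with 0 in 7 of 12 libraries. Bik (chromosome 15 from 83526790 to 83544635), a BH3-only gene of the endoplasmic reticulum, had 0 to 4 reads, with 0 in 4 libraries, and Hrk (chromosome 5 from 118169764 to 118189478), best known in neurons, had 0 to 3, also with 0 in 4 libraries. In all 12 libraries together they had 7, 16 and 11 reads. A count of 0 allows up to 3 reads in a library for counting error alone, so no fold change is given and differences between the groups were not detectable at this depth.

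Mcl1 encodes a short-lived anti-apoptotic protein that binds Bim, Puma and Noxa. The gene lies on chromosome 3 from 95656944 to 95663179. Counts were 3119, 2929 and 2870.0 in WT basal, 3352, 3169 and 3272 in WT EBSS and 3194, 3064 and 2986 in Vps15KO basal libraries. Vps15KO EBSS libraries had 5373, 5248 and 4791. The starved Vps15KO libraries were above all others, and Vps15KO basal libraries overlapped both WT groups, which did not overlap each other. EBSS raised Mcl1 1.67-fold in Vps15KO, by log2 0.73 ± 0.06 (SE, adjusted p = 1.22e-08). In WT the change was 0.13 ± 0.06 (SE, adjusted p = 0.0576), which passed without WT basal replicate 1 (0.17, adjusted p = 0.034) or Vps15KO EBSS replicate 3 (adjusted p = 0.0493), with a stricter filter (0.0494) and with a replicate block (0.0448). With quantile normalization it was 0.02 (adjusted p = 0.786). Between genotypes the difference was 0.05 ± 0.06 (SE, adjusted p = 0.476) in basal medium (95% interval -0.07 to 0.18) and 0.65 ± 0.06 (SE, adjusted p = 3.78e-08) in EBSS, 1.57-fold. The EBSS effects differed by 0.60 ± 0.08 (SE, adjusted p = 9.38e-05).

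Bcl2l1 encodes Bcl-xL, an anti-apoptotic protein of the outer mitochondrial membrane, and lies on chromosome 2 from 152758732 to 152833803. Counts were 1859, 2028 and 1903 in WT basal and 1176, 1167 and 1133 in WT EBSS libraries. In Vps15KO they were 2868, 2806 and 2773 in basal medium and 1851, 1883 and 2028 in EBSS. Starved libraries were below fed libraries of the same genotype, and starved Vps15KO libraries overlapped fed WT libraries. EBSS lowered Bcl2l1 to 0.600 of basal in WT (log2 -0.72 ± 0.06 SE, adjusted p = 6.06e-09) and to 0.682 in Vps15KO (log2 -0.55 ± 0.06 SE, adjusted p = 3.58e-07). Vps15KO was 1.46-fold WT in basal medium (log2 0.54 ± 0.06 SE, adjusted p = 3.02e-07) and 1.66-fold in EBSS (log2 0.71 ± 0.06 SE, adjusted p = 7.13e-09). The difference of the EBSS effects was 0.18 ± 0.08 (SE, adjusted p = 0.152) and was not called. The counts cover the gene as a whole and do not separate the long and short splice forms, which act in opposite ways.

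**Figure D2:**
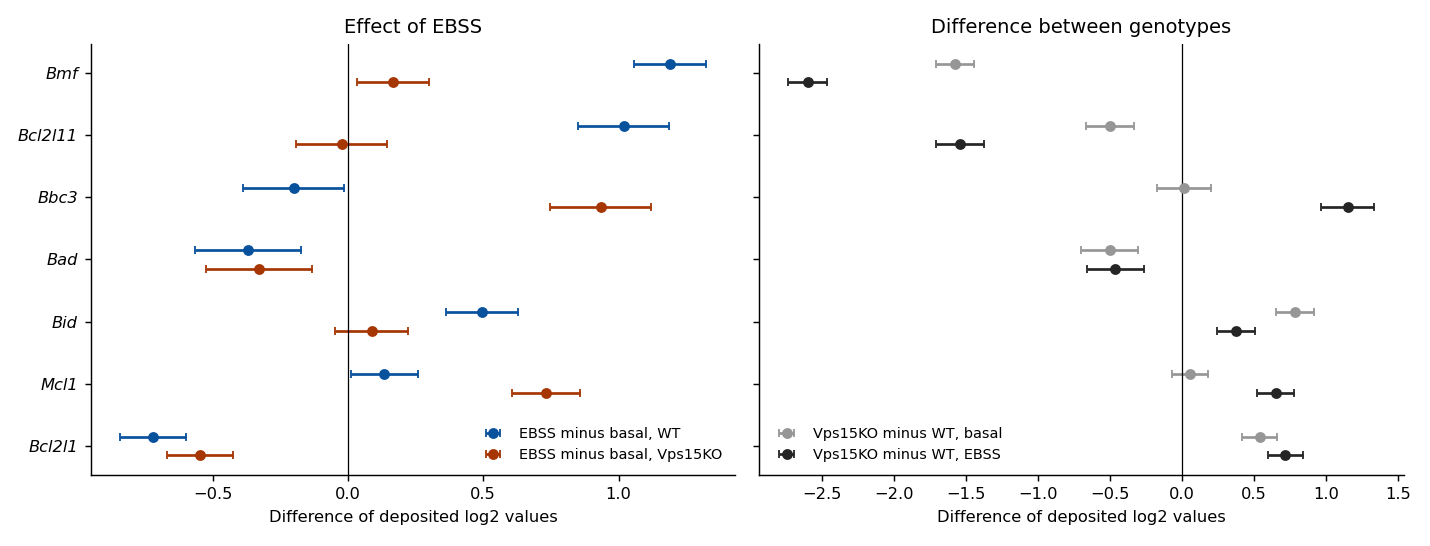
Log2 change (horizontal axis) of each tested member in the 4 comparisons, with 95% confidence intervals of the fit. The genotype difference in the response to EBSS is not drawn. Bmf and Bcl2l11 lie above 1 after EBSS in WT and near 0 in Vps15KO, and Bbc3 and Mcl1 are higher after EBSS in Vps15KO.

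Levels were compared between members per kilobase of exon (normalized counts divided by the length of all annotated exons). These lengths are 5253 bases for Bmf, 4586 for Bcl2l1, 2558 for Bad and 3418 for Mcl1. The longest transcripts have 4642, 2568, 1533 and 3418 bases, so the order of members rests on the length used. In WT basal cells Mcl1 led with 869.7 ± 38.0 (SD, n = 3), followed by Bmf (428 ± 7.79), Bcl2l1 (421 ± 19.1) and Bad (412 ± 59.9), which did not differ beyond their spread, and then Bid (220.2 ± 19.4), Bcl2l11 (163 ± 18.4) and Bbc3 (160.3 ± 16.0). In WT EBSS Bmf reached 983 ± 28.7, level with Mcl1 at 955 ± 26.9 within their spread, and Bcl2l1 (253 ± 5.04) was below Bcl2l11 (334 ± 34.4), Bad (315 ± 18.9) and Bid (313 ± 6.70). In Vps15KO basal cells Mcl1 (901 ± 30.8) and Bcl2l1 (614 ± 10.5) led, Bid (384 ± 7.62) was the most abundant BH3-only transcript, and Bmf had 140.3 ± 11.6. In Vps15KO EBSS Mcl1 had 1503 ± 89.7, Bcl2l1 419 ± 20.6, Bid 408 ± 2.18, Bbc3 321 ± 17.2, Bad 226 ± 19.9, Bmf 158 ± 6.40 and Bcl2l11 112 ± 3.17.

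Summed per kilobase, the BH3-only genes went from 1385 ± 71.4 to 2083 ± 59.9 after EBSS in WT and were 1087 ± 25.6 and 1226 ± 36.3 in Vps15KO. Mcl1 and Bcl2l1 together had 1291 ± 32.4 and 1208 ± 28.0 in WT, and 1515 ± 41.3 and 1922 ± 69.1 in Vps15KO. The BH3-only share of the 10 genes was 50.8% to 53.0% in the WT basal libraries, 62.7% to 63.7% in WT EBSS, 41.1% to 42.4% in Vps15KO basal and 37.5% to 40.2% in Vps15KO EBSS. These ranges did not overlap. They are a description without a test, and RNA shares do not give protein shares. With the longest transcript as the length, the mean shares were 54.5%, 66.5%, 44.0% and 43.2%, and the Vps15KO groups overlapped (43.4% to 44.7% in basal medium, 41.9% to 44.2% in EBSS), so their separation rests on the length used.

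The makeup of the BH3-only sum changed as well. Bmf took 30.9 ± 1.46% of it in WT basal and 47.2 ± 0.201% in WT EBSS, but 12.9 ± 1.05% and 12.9 ± 0.160% in Vps15KO (SD, n = 3). Bad took 29.7% and 15.1% in WT, close to Bmf in basal medium and above it in replicate 2, and 26.3% and 18.4% in Vps15KO. The shares use the length of all exons, 2558 bases for Bad and 5253 for Bmf. Their longest transcripts have 1533 and 4642 bases, so the order of Bad and Bmf in WT basal rests on the length used. Bid took 15.9% and 15.0% in WT and 35.3% and 33.3% in Vps15KO. Bbc3 took 11.6% and 6.63% in WT and 14.9% and 26.2% in Vps15KO. Bcl2l11 took 11.9% and 16.0% in WT and 10.5% and 9.14% in Vps15KO. Bmf was thus the largest part in starved WT libraries, and Bid in both Vps15KO groups.

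**Figure D3:**
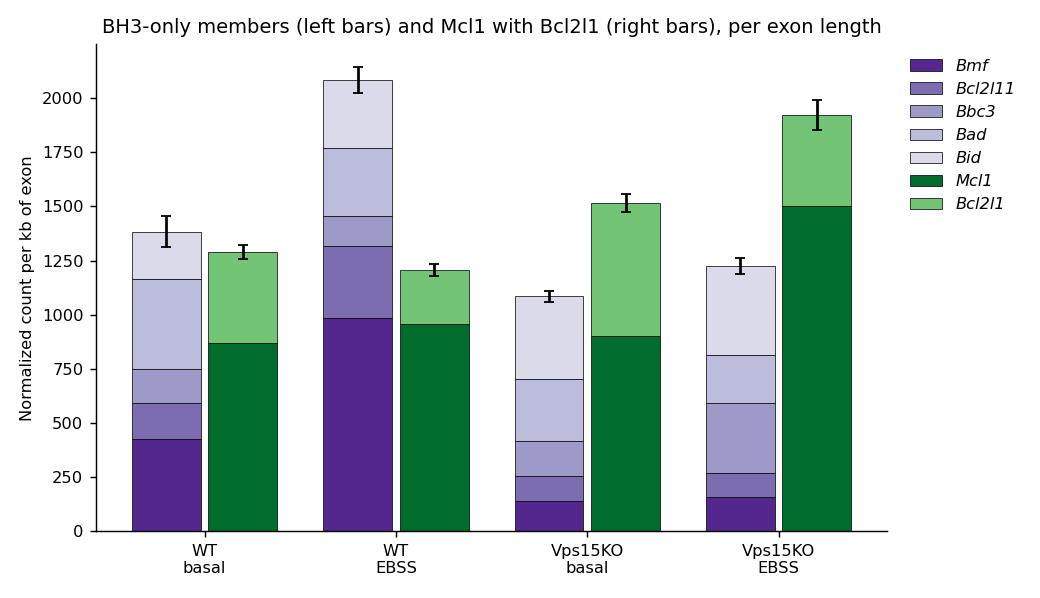
Normalized counts per kilobase of exon in each group, summed over the BH3-only genes and over Mcl1 and Bcl2l1, with the part of each gene. Error bars are the SD of the summed level over 3 libraries. The BH3-only sum is above the sum of Mcl1 and Bcl2l1 in WT EBSS and below it in both Vps15KO groups.

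The genes most alike to the 3 members with a log2 change of at least 1 were ranked by Pearson r of the deposited values over the 12 libraries, which share 4 groups, among 12308 candidates. Those nearest to Bmf were Agpat3 (r = 0.994), Nfix (r = 0.993) and Nacc2 (r = 0.992). Nfix, which encodes a nuclear factor I transcription factor, had 8314, 12416, 5159.9 and 5663 mean normalized counts in WT basal, WT EBSS, Vps15KO basal and Vps15KO EBSS. Nearest to Bcl2l11 were Timp3 (r = 0.982), Sesn1 (r = 0.980) and Tmem164 (r = 0.979). Sesn1, which encodes a sestrin of the amino acid sensing pathway, had 1031, 1444, 757 and 739.7 in the same order. Nearest to Bbc3 were Tnip2 (r = 0.976), Zbtb10 (r = 0.962) and Rassf1 (r = 0.959). Zbtb10, a zinc finger gene, had 408, 334, 455 and 1011.

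Other BCL2 family genes were measured from a list of 13, of which 7 had enough reads. Of all genes tested, 31.4% were higher and 31.3% lower after EBSS in WT and 25.9% and 26.1% in Vps15KO, and 29.3% were higher and 29.2% lower between genotypes in basal medium and 29.4% and 27.8% in EBSS. The counts of this and the next lists stand against these shares. After EBSS in WT 1 was higher and 4 lower, with a median of -0.40, against a median of -0.02 over all genes, and in Vps15KO 1 was higher and 4 lower (median -0.29, all genes -0.02). Bcl2l12, a nuclear and cytoplasmic member, fell, with log2 changes of -1.20 ± 0.11 for WT and -0.74 ± 0.11 in Vps15KO (SE, adjusted p = 3.09e-08 and 1.96e-05). Bak1, a pore former, changed by -0.58 ± 0.08 and -0.49 ± 0.08 (adjusted p = 6.47e-06 and 7.52e-05). Bok, a relative of Bax and Bak1, changed by -0.53 ± 0.10 and -0.52 ± 0.10. With each library's dependence on length and GC content taken out, the WT values were -0.38 for Bak1 and -0.27 for Bok. Between genotypes 2 were higher and 1 lower in Vps15KO in basal medium and 3 were higher and 0 lower in EBSS, with medians of 0.15 and 0.16 (all genes -0.01 and -0.00). Bax, the main soluble pore former, was higher in Vps15KO by 0.51 ± 0.08 and 0.64 ± 0.08 (adjusted p = 2.4e-05 and 1.7e-06), and EBSS effects on Bax were 0.01 ± 0.08 and 0.14 ± 0.08 and not called. The difference of the EBSS effects was called for 1 of the 7 genes, against 17.8% of all genes tested.

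Of 16 genes that carry out or restrain the mitochondrial pathway, from the apoptosome to caspases and their inhibitors, 5 were higher and 7 lower after EBSS in WT and 4 were higher and 9 lower in Vps15KO, with medians of -0.09 and -0.22 (all genes -0.02 in both). Aifm1 and Htra2, mitochondrial proteins with roles in cell death, changed in WT by -0.50 ± 0.06 and -0.52 ± 0.06, and Xiap, a caspase inhibitor, by 0.84 ± 0.12 (adjusted p = 1.31e-06, 1.71e-06 and 6.76e-06). After correction for length and GC content Htra2 was -0.33 and Xiap 0.56. Apaf1, the scaffold of the apoptosome, rose by 0.66 ± 0.08 in WT and 0.47 ± 0.08 in Vps15KO (adjusted p = 2.09e-06 and 0.000134), and by 0.41 and 0.26 after correction for length and GC content. Casp9, the caspase it activates, fell in Vps15KO (log2 -0.75 ± 0.07 SE, adjusted p = 6.64e-08). In WT the EBSS effect on Casp9 was 0.01 ± 0.07 and not called, and the effects differed by -0.77 ± 0.10 (SE, adjusted p = 3.7e-05). The executioner gene Casp6 changed by -0.41 ± 0.07 in WT and -0.68 ± 0.07 in Vps15KO. In basal medium 8 were higher and 0 lower in Vps15KO (median 0.20, all genes -0.01), against 29.3% higher and 29.2% lower of all genes, among them Cycs, cytochrome c (log2 0.55 ± 0.07 SE, adjusted p = 2.54e-06), and Htra2, a mitochondrial protease (log2 0.42 ± 0.06 SE, adjusted p = 2.37e-05). In EBSS 5 were higher and 3 lower (median 0.12), Htra2 again higher (log2 0.65 ± 0.06 SE, adjusted p = 1.08e-07).

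Of 10 transcription factors known to act on BH3-only genes 9 were tested. After EBSS 5 were higher and 0 lower in WT and 7 were higher and 0 lower in Vps15KO, with medians of 0.26 and 0.31 (all genes -0.02 in both). Of all genes, 62.7% were called in WT and 52.0% in Vps15KO, 31.4% and 25.9% as higher. Foxo1 rose in both, by 1.31 ± 0.06 (SE, adjusted p = 2.5e-12) in WT and 0.85 ± 0.06 (SE, adjusted p = 9.71e-10) in Vps15KO. Foxo3 rose by 0.33 ± 0.07 and 0.65 ± 0.07 (adjusted p = 0.000589 and 5.64e-07). Jun, an AP-1 subunit, rose by 0.65 ± 0.06 and 0.30 ± 0.06, the latter 0.20 with quantile normalization. Atf4, the effector of the integrated stress response, rose in Vps15KO by 0.90 ± 0.09 (SE, adjusted p = 2.88e-07) and in WT by 0.26 ± 0.09 (SE, adjusted p = 0.0222). The WT rise was not called without WT EBSS replicate 3 (0.16, adjusted p = 0.156). It was 0.46 without the WT libraries that stood apart. Between genotypes 4 were higher and 1 lower in Vps15KO in basal medium and 4 were higher and 3 lower in EBSS (medians 0.08 and -0.13). Ddit3, which encodes CHOP, was higher by 1.74 ± 0.13 (SE, adjusted p = 1.76e-09) and 2.29 ± 0.13 (SE, adjusted p = 4.37e-11), and Myc by 1.20 ± 0.07 (SE, adjusted p = 8.51e-11) and 1.58 ± 0.07 (SE, adjusted p = 2.15e-12). Atf4 was higher by 0.76 ± 0.09 and 1.40 ± 0.09. In EBSS Foxo1 was lower in Vps15KO (log2 -0.49 ± 0.06 SE, adjusted p = 8.02e-07), and in basal medium Foxo3 was (log2 -0.47 ± 0.07 SE, adjusted p = 2.1e-05). Trp53, which encodes p53, was higher in basal Vps15KO libraries by 0.37 ± 0.06 (SE, adjusted p = 1.46e-05). RNA levels of these factors do not measure their activity.

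**Figure D4:**
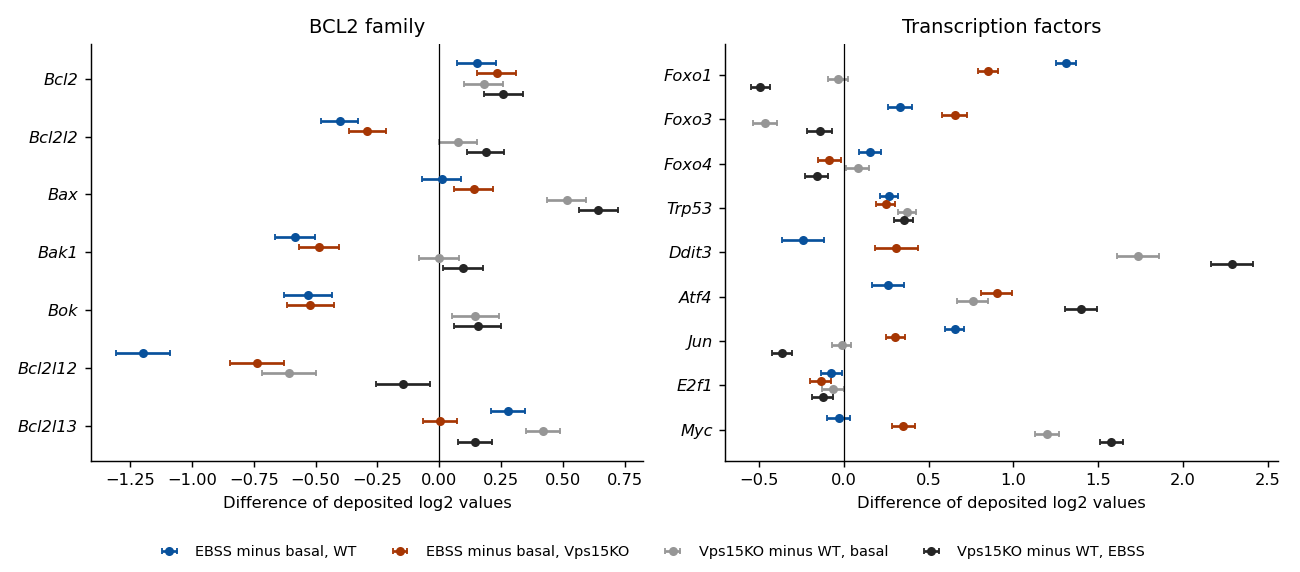
Log2 changes (horizontal axis, fit estimate with its SE) of 7 other BCL2 family genes and 9 transcription factors in the 4 comparisons. Bcl2l12, Bak1 and Bok lie below 0 after EBSS in both genotypes, and Ddit3, Myc and Atf4 lie above 0 in Vps15KO against WT in both media.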

How the data were processed

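The authors deposited a table of log2 values, a variance-stabilizing transformation of gene counts divided by size factors. The submitters' processing notes list mm10, STAR 2.7.10b, limma, DESeq2 and featureCounts without their roles. The lowest log2 value, 3.83, is that of a count of 0. The transformation of the deposited values was inverted from it, and 100% of values gave whole reads within 0.001. The 14279 genes whose mean was 1 or more above this value were fitted with limma 3.58.1 in R 4.3.3, with 1 mean per group over all 12 libraries and a variance trend (8 residual and 10.2 prior degrees of freedom). Tests were two-sided with Benjamini-Hochberg adjustment over all genes tested, with 0.05 as the threshold of a call. The fit was also run on simulated data with independent noise and few changed genes. That setting differs from these data, where most genes were called in each of the 4 comparisons.

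Members and lists were chosen with earlier results of these data known. All members are named, Pik3r4 as the check of the labels, and genes of each list from among the 5 called ones with the smallest p in a comparison. Not all of these are named, and the choice among them was made after their values were seen. Also named are the 3 genes most alike to each member with a called log2 change of at least 1. Bcl2a1a, Bcl2a1b, Bcl2a1d and Huwe1 are not among the symbols used and were not analysed here. Positions and promoters are from RefSeq (GRCm38.p6, the build mm10) and exon lengths from GENCODE. The same replicate numbers occur in each group but were not used as pairs in the main fit, and all libraries carry the same batch label.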

Additional observations from a re-analysis of the deposited data

Results flagged for a closer look

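Results are listed here where the test of the difference itself, the EBSS effect in Vps15KO minus that in WT, passed. Among the 7 tested members these were Bmf at -1.02, Bcl2l11 at -1.04 and Bid at -0.41 on the log2 scale, where EBSS had the larger positive effect in WT, and Bbc3 at 1.13 and Mcl1 at 0.60, where it had the larger positive effect in Vps15KO. In each medium, in every library, Bmf and Bcl2l11 were lower in Vps15KO than in WT.

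The same test passed for other BCL2 family genes at Bcl2l12 (0.46) and for execution genes at Casp9 (-0.77), Xiap (-0.54) and Cycs (-0.39). Among genes with BH3-like domains in autophagy and their partners it passed at Ambra1 (0.37) and Bnip3l (-0.28), and among death receptor genes at Tnfrsf10b (-0.75). Among regulators of the proteins it passed at Usp9x (-0.70), Akt1 (-0.28), Marchf5 (-0.25), Akt2 (-0.24), Pim3 (0.47), Ywhaz (0.28) and Ywhah (0.27). Among transcription factors it passed at Foxo1 (-0.46), Jun (-0.35), Foxo3 (0.32), Myc (0.38), Ddit3 (0.55) and Atf4 (0.64). Of all genes tested, 17.8% passed. Under at least 1 alternative the difference lost its call for Bcl2l12, Xiap, Cycs, Bnip3l, Akt1, Akt2, Marchf5, Ywhaz, Ywhah, Foxo3, Myc and Ddit3, and for none of the 5 members, the fold threshold aside. Without WT basal replicate 2 it was -0.33 for Xiap and 0.34 for Ddit3, and without both WT libraries that stood apart it was -0.31 for Xiap, 0.32 for Ddit3 and -0.38 for Usp9x.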

How the results depend on the processing

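The alternatives were voom on the worked-back reads, a replicate block, no filter and a stricter filter, quantile normalization, no variance trend, equal medians, weights for libraries, a fit of the compared groups alone (not run for the difference of the EBSS effects, which uses all groups), log2 of the normalized count plus 1 or plus 8, stricter thresholds, correction for length and GC content, each library left out in turn, and both WT libraries that stood apart left out. Besides the fold threshold these 26 gave 903 values for the members, of which 884 kept their side of the threshold, 11 lost a call, 8 gained one and 0 reversed a call. Some changes near 0 that were never called did change sign, such as that of Bid after EBSS in Vps15KO (0.09, lowest -0.016). Of the 27 member changes called, 25 stayed called under every one of these alternatives, and 4 of the other 8 gained a call under at least 1. The exceptions, the EBSS effects on Bmf and Bcl2l11 in Vps15KO and on Bad, Bbc3 and Mcl1 in WT and the basal genotype difference of Bbc3, are given with their values in the text or here. For Bbc3 that difference was 0.20 after correction for length and GC content (adjusted p = 0.0267). The EBSS effect on Bmf in Vps15KO also lost its call with no filter (adjusted p = 0.0649), quantile normalization (0.152), equal medians (0.0553), no variance trend (0.059) and correction for length and GC content (0.0549), and at a threshold of 0.01. Causes were not tested. With a log2 change of at least 1 as a further threshold, the members called were 2 after EBSS in WT, 0 after EBSS in Vps15KO, 1 between genotypes in basal medium, 3 between genotypes in EBSS and 3 for the difference of the EBSS effect. The 0 compares with 5 members by limma without that threshold and 5 by voom. Leaving out 1 library at a time gave 5 to 6, 4 to 5, 5 to 5, 7 to 7 and 5 to 5 members in the same order.

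Replicate numbers were not used as pairs in the main fit. Same-number correlations of deviations between genotypes were 0.0905, 0.26 and 0.0825 in basal medium and 0.124, 0.039 and 0.118 in EBSS. Those of different numbers ran from -0.212 to 0.106 in basal medium and from -0.111 to -0.012 in EBSS. With the replicate number as a block, 6, 5, 5, 7 and 5 members were called, the added one being Mcl1 after EBSS in WT (adjusted p = 0.0448). That block spans all 4 groups, so a pairing of genotypes within a medium was not tested. Of 173 called changes of genes in the other lists, 121 kept their call under every alternative besides the fold threshold. After correction for length and GC content, the EBSS effect on Becn1 in WT went from 0.01 (not called) to -0.21 (called). In Vps15KO the effect on Bcl2l13 went from 0.003 (not called) to -0.18 (called). The effect on Ripk1 in Vps15KO went from 0.16 (called) to -0.040 (not called). Depth limits Pmaip1, Bik and Hrk, each at 4 reads or fewer in every library.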

Other observations

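Genes that act on the BCL2 proteins after they are made, such as kinases, ubiquitin enzymes and tethers, were measured from a list of 18, of which 17 were tested. After EBSS 9 were higher and 3 lower in WT and 6 were higher and 1 lower in Vps15KO, with medians of 0.21 and 0.07. Between genotypes 4 were higher and 6 lower in Vps15KO in basal medium and 5 were higher and 5 lower in EBSS, with medians of -0.01 and -0.02. Of all genes, 62.7%, 52.0%, 58.5% and 57.2% were called in these 4 comparisons. Ywhah, which encodes a phosphoserine-binding adaptor, had the smallest p of the list after EBSS in WT and fell (log2 -0.69 ± 0.06 SE, adjusted p = 2.15e-08). Usp9x, a deubiquitinase that stabilises MCL1, rose after EBSS by 1.21 ± 0.12 (SE, adjusted p = 1.22e-07) in WT and 0.51 ± 0.12 (SE, adjusted p = 0.0019) in Vps15KO on the log2 scale, the latter 0.24 after correction for length and GC content. Pim1 and Pim3, survival kinases that phosphorylate BAD, were higher in Vps15KO, Pim1 by 0.80 ± 0.09 in basal medium and 1.11 ± 0.09 in EBSS and Pim3 by 0.85 ± 0.07 and 1.32 ± 0.07. Dynll1, a dynein light chain that tethers Bim, was lower in Vps15KO in basal medium (log2 -0.85 ± 0.07 SE, adjusted p = 1.11e-08) and in EBSS (log2 -0.87 ± 0.07 SE, adjusted p = 8.29e-09). Akt2, whose kinase family restrains FOXO factors and BAD, was lower in Vps15KO in EBSS (log2 -0.62 ± 0.05 SE, adjusted p = 1.98e-08).

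Of 10 death receptor genes upstream of Bid 8 were tested. After EBSS 3 were higher and 4 lower in WT and 2 were higher and 4 lower in Vps15KO (medians -0.21 and -0.16), and between genotypes 1 was higher and 3 lower in basal medium and 2 were higher and 1 lower in EBSS (medians -0.05 and -0.05). Over all genes tested, 62.7%, 52.0%, 58.5% and 57.2% were called in these 4 comparisons, with medians of -0.02, -0.02, -0.01 and -0.0008. The counts of this list and the next stand against these shares. Tradd, an adaptor of the TNF receptor, fell in WT (log2 -0.70 ± 0.09 SE, adjusted p = 2.37e-06, and -0.45 after correction for length and GC content). Tnfrsf10b, the mouse TRAIL receptor and a known CHOP target, was higher in basal Vps15KO libraries by 0.61 ± 0.07 (SE, adjusted p = 7.89e-07). EBSS moved it by 0.45 ± 0.07 in WT and -0.30 ± 0.07 in Vps15KO, both called. Of 6 genes with BH3-like domains in autophagy and mitophagy or their partners, 1 was higher and 2 lower after EBSS in WT, 1 was higher and 1 lower in Vps15KO, and between genotypes 2 were higher and 1 lower in basal medium and 2 were higher and 3 lower in EBSS (medians 0.03, -0.07, 0.03 and -0.04). Bnip3, a mitophagy receptor, was higher in Vps15KO by 0.67 ± 0.09 in basal medium and 0.51 ± 0.09 in EBSS.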
